A study of Mus musculus with 144 samples.

Results

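Single retinal microglia from mice given ripasudil at a high dose of 10 mg/kg were compared with those from mice given a low dose of 1 mg/kg. Ripasudil inhibits the kinases ROCK1 and ROCK2. The members were the high-dose and low-dose cells of the deposited expression table, matched within each of 3 plates, provided that 1000 genes or more were found in the cell, a gene counting as found when its FPKM was at least 1. FPKM counts the fragments assigned to a gene per kilobase of its length, scaled to all assigned fragments of that cell. This kept 47 of 48 high-dose cells and 47 of 48 low-dose cells, 94 of the 140 cells kept in the whole series. The 2 dosed cells that were left out had 896 and 939 such genes, and the 2 kept dosed cells nearest to the limit had 1006 and 1177.

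The series concerns GPR84, TNF and IL-1α in retinal microglia after optic nerve damage; the labels of these samples do not say whether the eyes were injured. All groups came from Iba1-EGFP mice, in which the Iba1 gene's promoter drives a green fluorescent protein in microglia and other macrophages, and each library is 1 cell sorted by its fluorescence. High-dose mice were 12 weeks old, low-dose mice 14 weeks, and the mice given vehicle (PBS) 10 to 14 weeks. Each group held 16 cells on every plate, in wells F3 to H6 for the high dose, C5 to F2 for the low dose and A1 to C4 for PBS. Dose therefore cannot be told apart from age or from well position. No source used here gives the route, timing or number of doses. No animal is named, so each dose is 1 sample: no difference below has a replicate check, no test was made, and the plates are repeats of the sort and library steps at most.

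The ROCK kinases act downstream of the small GTPase RhoA; they phosphorylate myosin light chains, the myosin phosphatase subunit and LIM kinases, and so set actomyosin contraction and actin filament turnover. In microglia this machinery shapes process movement, migration and phagocytosis, and ROCK signalling also feeds into inflammatory gene expression. GPR84 is a receptor for medium-chain fatty acids on myeloid cells, and TNF and IL-1α are cytokines that activated microglia release.

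Reads assigned to genes were estimated from a step per cell, the most frequent positive product of FPKM and gene length, taken as 1 read. They numbered 30204 to 4387312 per high-dose cell with a median of 1399336, and 50760 to 4668752 with a median of 1855057 per low-dose cell. These read numbers are uncertain, since a median of 51.4% of a cell's values were whole multiples of that step. The median number of genes found per cell was 2263 over all high-dose and 2406 over all low-dose cells. High-dose cells had more of them on plate 1 (1827.5 against 1588) and fewer on plate 2 (2495.5 against 3061.5) and plate 3 (1887 against 2421.5). Every kept cell of both doses carried at least 3 of the 10 microglial markers, and the sum of these markers had a median FPKM of 7976 in high-dose and 7738 in low-dose cells. Rod photoreceptor transcripts differed between the doses: at least 3 of 12 rod markers were found in 13 high-dose and 7 low-dose cells, 12 and 10 of the markers occurred in any cell, and their summed FPKM ran from 0 to 16779 with a median of 1.76 at the high dose, against 0 to 4898 with a median of 0.569 at the low dose. Cells with 3 or more markers of neutrophils numbered 8 and 8, of Müller glia 6 and 6, and of border macrophages 3 and 4 at the high and low dose. The highest correlation between any 2 dosed cells over measured genes was 0.74, so no pair of libraries was near to identical.

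Most genes were lower at the high dose. A gene's level is its mean log2(FPKM + 1) over kept cells, and its difference is the high-dose level minus the low-dose level within a plate, averaged over the 3 plates. Among the 3261 genes found in 25% or more of the dosed cells, the median difference was -0.26, with -0.34, -0.22 and -0.24 on plates 1, 2 and 3. Of them, 72.6% had a difference below 0. The difference was below 0 on all 3 plates for 900 genes and above 0 on all 3 for 163. With a difference of at least 1 in size and the same sign on every plate as a rule of size, 235 genes were lower (7.21% of those measured) and 20 were higher (0.613%). This rule says how large a difference was between these cells and nothing about chance. It was met more often at higher levels. Of 1087 measured genes in each of 3 groups by mean level, from lowest to highest, 37, 82 and 116 were lower past it. In the same groups 0, 7 and 13 were higher past it, and the median differences were -0.19, -0.31 and -0.33. The split between lower and higher genes depended on the scaling: with each plate's median difference subtracted, 91 were lower and 70 higher, after adjustment for detected genes per cell 110 and 55, and taken as log2 ratios of mean FPKM 262 and 129. The median difference was -0.13 after the adjustment and -0.14 as log2 ratios. Without the cells that held 3 or more rod markers, 240 genes were lower and 48 higher.

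The genes that were lower past the size rule held 178 protein-coding genes and 38 pseudogenes, against 1944 and 1093 among all measured genes, and 220 of the 235 were also found in fewer high-dose cells. They were found in a median of 40.4% of high-dose and 55.3% of low-dose cells. PBS cells stood between the doses for 139 of these genes, above both for 94 and below both for 2, and their median level was 3.24 with PBS, 3.37 with the low and 2.09 with the high dose. For the 20 higher genes the median levels were 3.86 with PBS, 2.54 with the low and 3.78 with the high dose. For the genes of both directions, then, the median level of PBS cells was nearer to the dose with more of the transcript. These genes were picked on the difference between the doses, so where PBS cells fall is a description. PBS cells also held more found genes, with a median of 2923.5 over all PBS cells, against 2263 at the high and 2406 at the low dose. Whether this bears on where PBS cells fall was not tested.

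Values in single cells, taken over all measured genes together and not gene by gene, were spread from 0 to 10 or more. Over the measured genes in dosed cells, 30.4% of values were listed at 0, 19.2% lay above 0 and below 1, 17.7% from 1 to below 10, and 32.7% at 10 or more. For that reason the number of cells that reached an FPKM of 10 is given beside the range and median of single cells.

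The most negative differences included those of protein-coding genes for splicing, membrane transport, respiration and contraction. Srsf9 (GRCm38 chr5:115327177-115333080), an SR protein of the splicing machinery, had an FPKM of 0 to 2095 in high-dose cells with a median of 1.11, against 0 to 1282 with a median of 47.1 in low-dose cells. It reached 10 in 13 of 47 high-dose cells, against 30 of 47 low-dose cells, and the difference was -2.38 (-1.69, -3.14 and -2.30 on plates 1, 2 and 3). Both doses had cells at 0 and cells above 1000, so single cells overlapped fully while the middle of the distributions differed. Rab1b, a GTPase of transport from the endoplasmic reticulum (ER) to the Golgi, ran from 0 to 469 in high-dose cells with a median of 0.543, against 0 to 1227 with a median of 8.67 in low-dose cells. Its difference was -2.06 (-3.23, -1.45 and -1.50 by plate), with 10 or more in 11 high-dose cells, against 22 low-dose cells. Gltp, which transfers glycolipids between membranes, ran from 0 to 1745 in high-dose cells with a median of 1.24, against 0 to 2651 with a median of 7.84 in low-dose cells; its difference of -2.04 rested on plates 1 and 3 (-3.04, -0.26 and -2.84). Ndufa8, a subunit of respiratory complex I, ran from 0 to 1778 in high-dose cells with a median of 0.713, against 0 to 1423 with a median of 51.5 in low-dose cells. The difference was -2.01 and similar on each plate (-1.57, -2.10 and -2.36). Cox7b, a subunit of cytochrome c oxidase, ran from 0 to 486 in high-dose cells with a median of 1.32, against 0 to 983 with a median of 40.4 in low-dose cells, with a difference of -1.99 (-3.23, -1.82 and -0.91). Cox7b has near-identical stretches in 2 other genes, between which reads could be split. For these genes, and for every other gene whose cells are given below, the ranges of the doses overlapped.

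Among the 15 most negative genes, Mir3064 (-2.34), Mir704 (-1.68) and Mir3076 (-1.68) are short microRNA genes that lie within Ddx5, Pdia4 and Tkt. Their reads cannot be told apart from those of the host transcripts, and they are not counted here as microRNA measurements. The remaining genes were Ncaph2, a condensin subunit (-1.89), Tmem14c, a mitochondrial membrane protein of heme synthesis (-1.85), Ndufb7 of complex I (-1.72), the lysosomal phospholipase Pla2g15 (-1.68), and Hsp90b1, Myl6 and Nfkbiz, which are described with their pathways. Ncaph2 reached an FPKM of 10 in 3 of 47 high-dose cells, against 17 of 47 low-dose cells, and Ndufb7 in 9 high-dose cells, against 23 low-dose cells. Ncaph2 overlaps exons of Sco2 and Tymp.

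Fewer genes were higher, among them genes of energy metabolism, actin capping and antigen presentation. Spag7 (GRCm38 chr11:70663771-70669416) had an FPKM of 0 to 966 in high-dose cells with a median of 0.443, against 0 to 527 with a median of 0 in low-dose cells, and it reached 10 in 12 of 47 high-dose cells, against 4 of 47 low-dose cells. Its difference was 1.73 (1.84, 2.34 and 1.01 on plates 1, 2 and 3), the most positive of the named genes. Slc25a4, the ADP/ATP carrier of mitochondria, ran from 0 to 2793 in high-dose cells with a median of 14.6, against 0 to 1618 with a median of 0.587 in low-dose cells, with a difference of 1.53 (2.33, 1.04 and 1.22). Capzb, a subunit of the protein that caps actin filaments, ran from 0.121 to 2736 in high-dose cells with a median of 145, against 0 to 1005 with a median of 37.7 in low-dose cells. Its difference of 1.46 came mainly from plate 1 (3.77, 0.26 and 0.34) and was 0.30 without that plate. Ruvbl1, an ATPase of chromatin remodelling complexes, ran from 0 to 3363 in high-dose cells with a median of 0.289, against 0 to 235 with a median of 0 in low-dose cells, again with most of its difference of 1.36 on plate 1 (2.85, 0.96 and 0.28) and 0.62 without it. Hk2, a hexokinase that starts glycolysis, ran from 0 to 352 in high-dose cells with a median of 3.83, against 0 to 39 with a median of 0.174 in low-dose cells, and its difference was 1.28 (1.94, 0.81 and 1.09). Hk2 reached 10 in 18 of 47 high-dose cells, against 10 of 47 low-dose cells, and in 17 of 46 PBS cells.

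Arhgdib, which encodes a GDP dissociation inhibitor of blood cells and keeps small GTPases of the RhoA family inactive in the cytosol, had an FPKM of 0 to 2696 in high-dose cells with a median of 477, against 0 to 2017 with a median of 283 in low-dose cells. The difference was 1.35, nearly the same on each plate (1.37, 1.36 and 1.32). Pde6h, a phosphodiesterase subunit of cone photoreceptors, overlaps Arhgdib on the opposite strand and had a difference of 1.03. Whether counting used strand is not stated in these sources, so the reads of this pair cannot be told apart. Among the other higher genes were Uqcc2, an assembly factor of complex III (1.24), Snu13, a small nucleolar and spliceosomal RNA-binding protein (1.16), Cd74 (1.13), H2-Ab1 (1.12), the DNA exonuclease Trex1 (1.08), the small GTPase Rap1a (1.04) and Micos10 of the mitochondrial inner membrane (1.03). Mir5107 (1.11) lies within Cd74, and its reads cannot be told apart from that host. Without the cells that held 3 or more rod markers, 14 of the 15 most positive genes kept a difference of 1 or more, Uqcc2 being at 0.82, and all 15 of the most negative ones kept a difference of -1 or lower.

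**Figure D1:**
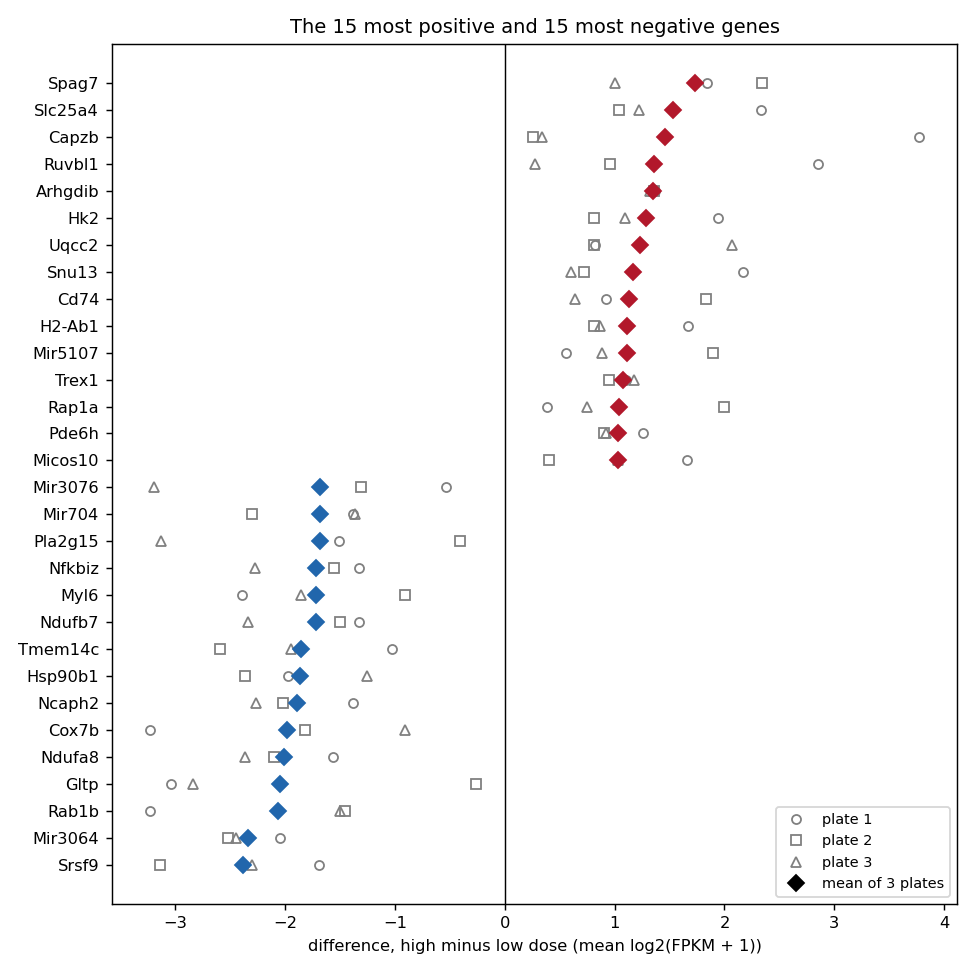
Difference between the high and the low dose in mean log2(FPKM + 1) for the 15 most positive (red) and 15 most negative (blue) named genes; diamonds are means of 3 plates and open symbols the single plates. Every plate lies on the same side of 0, as the rule for naming required, and the plates of Capzb (3.77, 0.26 and 0.34) lie far apart while those of Arhgdib (1.37, 1.36 and 1.32) nearly coincide.

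Gene lists were read beside the 7386 genes found in 10% or more of the dosed cells, whose median difference was -0.19 and of which 70.2% were below 0. Neither this background nor the share of measured genes past the size rule was matched to the level of a list's members. Both differed by level among measured genes, as given above, so a list of abundant genes can lie below all genes for that reason. Of 27 lists of pathways and cell states, 24 had a median below 0 and 20 a median below that of all genes. In 19 lists the median was below 0 on each of the 3 plates, and in 0 lists was it above 0 on each. The size rule could be met only by members found in 25% or more of the dosed cells; members named beyond the rule for naming in the methods were chosen after their values were seen. The most negative medians were those of ER stress and protein folding genes (-0.85) and immediate early genes (-0.85), followed by cell cycle (-0.60), proteasome (-0.56) and redox genes (-0.51). Fc receptors (0.26), interferon-stimulated genes (0.09) and complement (0.01) had medians above 0. The sign of the median turned under at least 1 of the scalings for the MHC class II, lipid, cytokine, ribosomal, heat shock, homeostatic, disease-associated, interferon-stimulated and complement lists, and under none of them for the others.

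**Figure D2:**
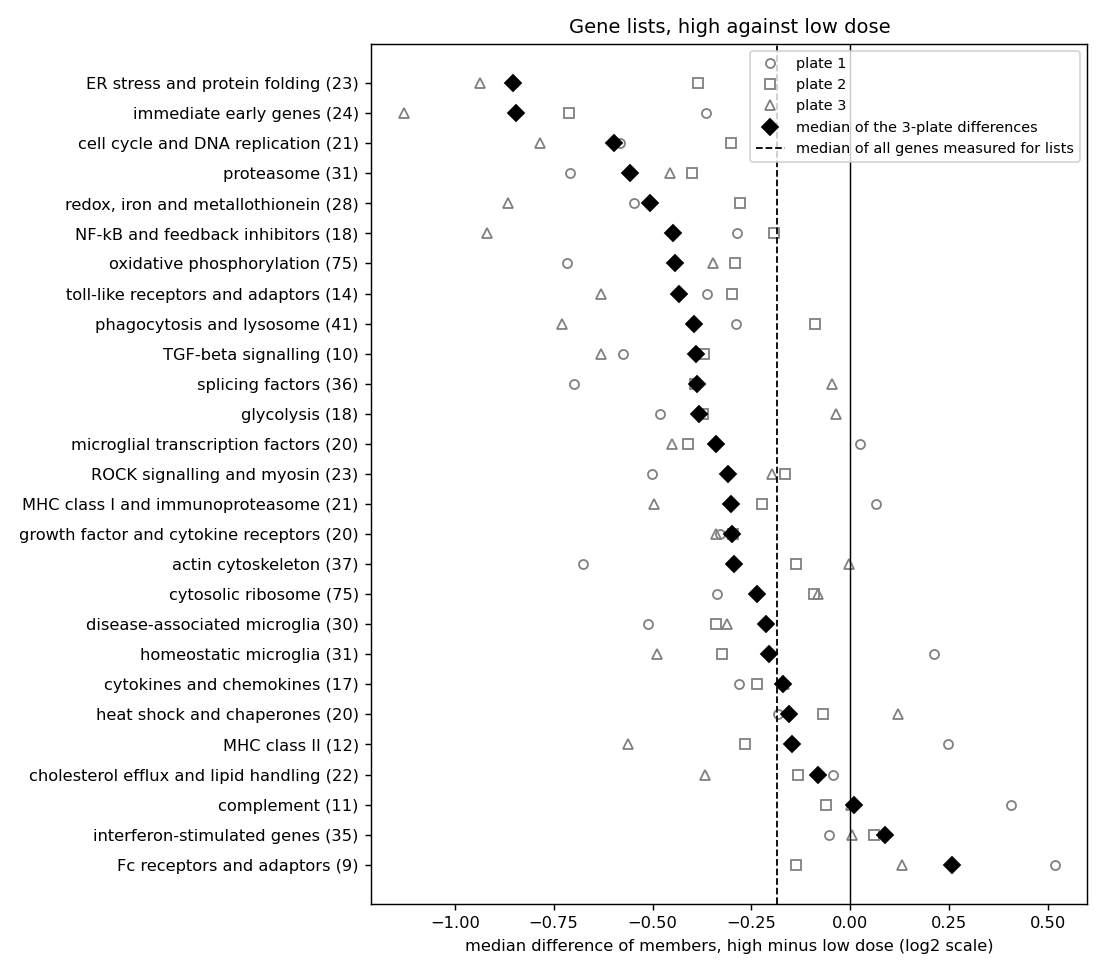
Median difference of the measured members of each gene list, high minus low dose, with the number of measured members in parentheses; diamonds use the 3-plate differences, open symbols single plates, and the dashed line is the median of all genes measured for lists (-0.19). ER stress and immediate early genes lie farthest left, at -0.85 and -0.85.

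Chaperones and enzymes that fold proteins in the ER were lower together at the high dose. Of 26 listed genes, 23 were measured, and 22 were below 0, 11 of them on all 3 plates. Of the 19 members frequent enough for the size rule, 5 passed it, all lower (26.3%, against 7.21% of all measured genes). The median was -0.85 (-0.85, -0.39 and -0.94 on plates 1, 2 and 3). Hsp90b1, the HSP90 chaperone of the ER, had an FPKM of 0.0495 to 632 in high-dose cells with a median of 1.51, against 0 to 849 with a median of 108 in low-dose cells. It reached 10 in 17 of 47 high-dose cells, against 29 of 47 low-dose cells, with a difference of -1.86 (-1.97, -2.36 and -1.25). Pdia4, a protein disulfide isomerase, had a difference of -1.45 (-0.98, -2.43 and -0.94) and reached 10 in 13 high-dose cells, against 23 low-dose cells. Pdia3, a disulfide isomerase that acts on glycoproteins, was found in 45 cells of each dose, yet its median FPKM was 21.1 in high-dose and 459 in low-dose cells. Its difference of -1.55 was not seen on plate 2 (-2.54, 0.11 and -2.22). The translocon-associated subunits Ssr4 (-1.22) and Ssr1 (-1.20) and the isomerase Pdia6 (-1.13) also passed the size rule. Among the regulators, the transcription factors Xbp1 and Atf4 had differences of -0.93 (-0.51, -0.19 and -2.09) and -0.90 (-1.16, -0.77 and -0.78), and Ddit3, a factor induced under prolonged stress, -0.25. Hspa5, the main HSP70 chaperone of the ER, was at -0.50 (-0.71, 0.01 and -0.80), and the ubiquitin ligase Syvn1 at 0.04 was the 1 member above 0. At least 12 of the 23 members reached an FPKM of 10 in 11 high-dose cells, against 22 low-dose cells; this cut and the like cuts in the lists below were chosen after the values were seen. Of the list's single values, 30.9% in high-dose and 43.2% in low-dose cells reached 10, against 17.6% and 21.6% over all genes measured for lists, so the direction of the gap was that of all genes. The median was -0.76 without the rod-marker cells and -0.54 after adjustment for detected genes per cell, with which the mean level of the list correlated at 0.76 over the high-dose and 0.75 over the low-dose cells.

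Many ER chaperone genes are known to be induced through the ER stress response element, which factors such as XBP1 and ATF6 bind together with NF-Y. Promoter windows from RefSeq (GRCm38.p6; 250 bases before to 50 after the start site) were searched on both strands for that element, written here as CCAAT, any 9 bases and CCACG. Of the 23 measured members 21 had a window, and 8 of these (38.1%) held the element. So did 37 of all 27018 genes with a RefSeq window (0.137%) and 8 of 1568 measured genes with a window (0.51%). The 8 members with it had differences of -1.86 to 0.04 with a median of -0.70, and the 13 without it -1.55 to -0.25 with a median of -0.90. A match is a description of these letters, not of a factor's binding. The stretches that carry the element before the start site are given for Hsp90b1, which had the most negative difference of the list, for 3 further members and for Hspa5, the textbook target, each 5′ to 3′ on the strand of the gene with the element in capitals, which in Calr and in the second match of Hsp90b1 stands on the opposite strand and so reads in reverse complement. The stretches lie at chr10:86705513-86705676, minus strand (Hsp90b1), chr12:17266471-17266529, plus strand (Pdia6), chr11:50325780-50325838, minus strand (Canx), chr8:84847055-84847113, minus strand (Calr) and chr2:34772005-34772063, plus strand (Hspa5). Canx and Calr, lectin chaperones of glycoproteins, had differences of -1.11 (0.73, -2.98 and -1.08) and -0.87 (-0.85, -0.36 and -1.39).
Hsp90b1: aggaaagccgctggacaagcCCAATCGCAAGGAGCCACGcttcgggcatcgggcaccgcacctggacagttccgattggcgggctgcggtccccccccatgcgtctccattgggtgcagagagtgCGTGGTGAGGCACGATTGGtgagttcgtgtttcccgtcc
Pdia6: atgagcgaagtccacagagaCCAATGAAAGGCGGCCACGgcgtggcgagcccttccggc
Canx: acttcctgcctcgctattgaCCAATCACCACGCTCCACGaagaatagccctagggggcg
Calr: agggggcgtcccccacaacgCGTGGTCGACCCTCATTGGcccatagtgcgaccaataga
Hspa5: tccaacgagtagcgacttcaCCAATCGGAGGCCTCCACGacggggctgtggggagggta

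Immediate early genes, transcription factors and feedback regulators that respond within minutes to stimulation or to handling of tissue, were also lower as a group. Of 29 listed genes 24 were measured, and 23 were below 0, 17 of these on all 3 plates. Of the 18 frequent enough for the size rule, 6 were lower past it (33.3%, against 7.21% of all measured genes). The median was -0.85, but it ran from -0.36 on plate 1 over -0.71 on plate 2 to -1.13 on plate 3. Btg2, an antiproliferative regulator, was found in 32 cells of each dose and reached an FPKM of 10 in 15 high-dose cells, against 23 low-dose cells, with a difference of -1.57 (-1.53, -1.07 and -2.12). Zfp36, which destabilises Tnf and other cytokine messages, had an FPKM of 0.115 to 2052 in high-dose cells with a median of 4.07, against 0 to 2803 with a median of 106 in low-dose cells. Its difference was -1.50 (-1.40, -0.58 and -2.51). Dusp1, a phosphatase that turns off MAP kinases, had a difference of -1.48 (-1.58, -0.29 and -2.57) and reached 10 in 16 high-dose cells, against 23 low-dose cells. The AP-1 members Jun (-1.37), Atf3 (-1.29), Fosb (-0.74), Fos (-0.73) and Junb (-0.53) were all below 0; Fos and Junb were above 0 on plate 1 (0.56 and 0.67). Klf2 (-1.01) passed the size rule and Egr1 (-0.99) and Nr4a1 (-0.85) did not, while Rgs1, a regulator of G protein signalling, was the 1 member above 0 (0.55). Single cells were split: at least 12 of the 24 members reached an FPKM of 10 in 10 high-dose cells, against 19 low-dose cells (2, 6 and 2 high-dose against 5, 8 and 6 low-dose cells on plates 1, 2 and 3), and the median cell of either dose had 3. In PBS the corresponding number was 20 of 46 cells. Over all values of the list, 25% in high-dose and 36.1% in low-dose cells reached 10. The shares over all genes measured for lists were 17.6% and 21.6%, with the same direction. The list median was -0.43 after adjustment for detected genes per cell, -0.59 without the rod-marker cells, and -1.78 over cells with 2000 found genes or more.

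CREB family factors act on several early genes through the cAMP response element (TGACGTCA, the same on both strands). It was in the promoter window of 3 of the 21 measured early genes with a window. Of all 27018 genes with a RefSeq window 549 held it (2.03%), and of the 3261 measured genes 60 of 1568 with a window (3.83%). The holders were Btg2 (chr1:134079294-134079341, minus strand), Dusp1 (chr17:26508588-26508635, minus strand) and Ppp1r15a (chr7:45526269-45526300, minus strand), which recruits a phosphatase to eIF2α and had a difference of -0.96 (-0.92, -0.80 and -1.16). Their stretches before the start site are shown as above, with the element in capitals.
Btg2: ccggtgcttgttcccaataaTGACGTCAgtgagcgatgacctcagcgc
Dusp1: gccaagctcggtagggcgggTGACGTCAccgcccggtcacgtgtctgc
Ppp1r15a: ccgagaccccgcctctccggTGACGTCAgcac

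**Figure D3:**
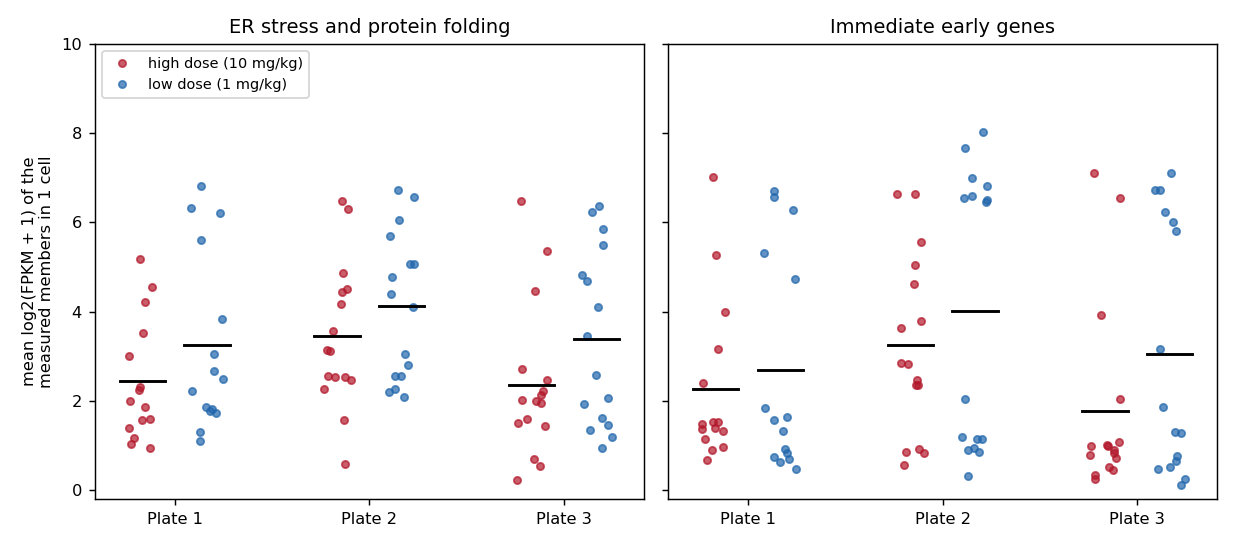
Mean log2(FPKM + 1) over the measured members of the ER stress list (left) and the immediate early list (right) in each kept cell, by plate, with high-dose cells in red left of low-dose cells in blue and the mean as a bar. The high-dose mean is the lower one on every plate for both lists, and the cells of the doses overlap on each plate.

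The pathway that ripasudil inhibits had a median near that of all genes, and its members differed among themselves. Of 37 genes of ROCK signalling and myosin 23 were measured, 19 were below 0, and the median was -0.31 (-0.50, -0.16 and -0.20). Rock1 and Rock2, the kinases inhibited by the drug, were sparse: Rock1 was found in 5 high-dose and 9 low-dose cells and Rock2 in 5 and 3, with differences of -0.03 and 0.27. Myl6, the essential light chain of non-muscle myosin, had an FPKM of 0 to 580.4 in high-dose cells with a median of 6.64, against 0 to 875 with a median of 102 in low-dose cells. It reached 10 in 22 of 47 high-dose cells, against 33 of 47 low-dose cells, and its difference was -1.72 (-2.39, -0.91 and -1.85). The actin-severing protein cofilin (Cfl1, -1.03; -1.60, -1.35 and -0.15) also passed the size rule, and the guanine nucleotide exchange factor Dock8 (-1.15), found in too few cells for that rule, was lower on each plate. The GTPases Rhob (-1.17; 0.39, -1.70 and -2.20), Rhoa (-0.31; -1.05, 1.20 and -1.07) and Rac1 (-0.46; 0.20, -2.41 and 0.82) differed in sign between plates. On the other side, Arhgdib was at 1.35 and Ppp1cb, the catalytic subunit of myosin phosphatase, at 0.94 (0.08, 1.23 and 1.52).

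Actin genes gave a similar picture, with a median of -0.29 (-0.68, -0.14 and 0.00) and 26 of 37 members below 0. Of the 33 frequent enough for the size rule, 4 were lower past it (12.1%, against 7.21% of all measured genes) and 1 higher. The 4 members lower past the size rule were Fermt3 (-1.36), the kindlin of blood cells that activates integrins, tropomyosin 3 (Tpm3, -1.30), the Arp2/3 subunit Arpc1b (-1.12) and the crosslinker filamin A (Flna, -1.03), and the 1 higher was Capzb. Fermt3 reached an FPKM of 10 in 14 of 47 high-dose cells, against 25 of 47 low-dose cells, and Tpm3 in 24 high-dose cells, against 33 low-dose cells; Fermt3 overlaps Trpt1 and Tpm3 has a near-identical stretch in 1 other gene. The main actin gene Actb (0.04), thymosin beta 4 (Tmsb4x, 0.06) and profilin (Pfn1, -0.28) differed little. Zyxin (Zyx), a focal adhesion protein and target of serum response factor, was at -0.65 (-0.70, -0.98 and -0.26).

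Gpr84 was lower at the high dose, while Tnf and Il1a differed less on the log scale and more as ratios of mean FPKM. Gpr84 (GRCm38 chr15:103308235-103310612) was found in 26 of 47 high-dose cells (55.3%, with a 95% interval of 40.1 to 69.8 by the exact Clopper-Pearson method), against 36 low-dose cells (76.6%, 62 to 87.7); intervals cover counting error only. Its FPKM was 0 to 1572 in high-dose cells with a median of 1.72, against 0 to 1784 with a median of 3.12 in low-dose cells, and it reached 10 in 14 high-dose cells, against 22 low-dose cells. The difference of -1.14 met the size rule but ran from -0.06 on plate 1 over -0.92 on plate 2 to -2.44 on plate 3, and was -0.49 without plate 3 and -0.70 after adjustment for detected genes per cell. With each cell thinned to 300000 reads, Gpr84 had a read in 54.5% of high-dose and 60.9% of low-dose cells; thinning also lowered the threshold to any read and left out the shallower cells, so these shares do not isolate depth. Tnf (GRCm38 chr17:35199381-35202007) was found in 31 high-dose cells (66%, 50.7 to 79.1) and in 25 low-dose cells (53.2%, 38.1 to 67.9), with a median FPKM of 1.71 at the high and 1.46 at the low dose. At an FPKM of 10 the order turned, with 11 of 47 high-dose cells, against 15 of 47 low-dose cells; the highest cell had 867 at the high dose and 2112 at the low dose. Its difference was -0.43 (-1.02, -0.43 and 0.17) and 0.07 after the adjustment. Il1a (GRCm38 chr2:129299610-129309972) was found in 32 high-dose cells (68.1%, 52.9 to 80.9) and 30 low-dose cells (63.8%, 48.5 to 77.3), at 10 or more in 17 high-dose cells, against 19 low-dose cells, with a difference of -0.58 (-1.17, -0.04 and -0.54). Neither cytokine passed the size rule on this scale, and Il1a was at -0.06 after the adjustment. As log2 ratios of mean FPKM, which follow the highest cells, the differences were -0.41 for Gpr84, -1.37 for Tnf and -1.16 for Il1a. With each plate's median subtracted, Gpr84 was at -0.87 and no longer met the rule. Gpr84 and Il1a each overlap a gene model whose reads could be split from theirs.

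The combination of the 3 genes in a cell differed most between the doses in the cells that held Gpr84 without a cytokine or a cytokine without Gpr84. Gpr84 without either cytokine was found in 2 high-dose cells (4.26%, 0.52 to 14.5) and 8 low-dose cells (17%, 7.65 to 30.8). A cytokine without Gpr84 was found in 14 high-dose cells (29.8%) and 6 low-dose cells (12.8%), and all 3 genes in 18 and 20. After thinning, the first pattern was in 4 of 44 high-dose and 8 of 46 low-dose cells and the second in 17 and 10. The intervals of both patterns overlap between the doses.

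**Figure D4:**
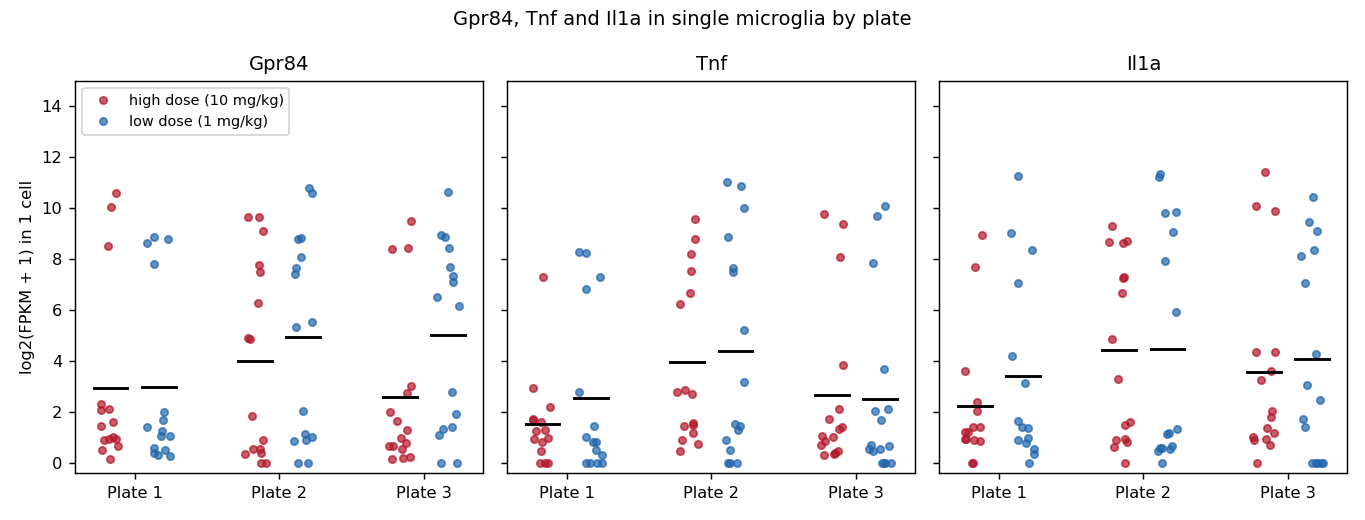
log2(FPKM + 1) of Gpr84, Tnf and Il1a in each kept cell by plate, with high-dose cells in red left of low-dose cells in blue and the mean as a bar. Cells of both doses range from near 0 to high values on every plate; for Gpr84 the numbers at or above an FPKM of 10 were 3 high-dose against 4 low-dose cells on plate 1, 8 against 9 on plate 2 and 3 against 9 on plate 3.

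Genes of the NF-kB pathway and of the receptors upstream of it were mostly lower. The NF-kB list had 15 of 18 measured members below 0 and a median of -0.45 (-0.29, -0.19 and -0.92). Nfkbiz, an inducible nuclear regulator that NF-kB needs for a subset of its targets, had an FPKM of 0 to 297 in high-dose cells with a median of 0.464, against 0 to 452 with a median of 1.1 in low-dose cells. It reached 10 in 8 of 47 high-dose cells, against 21 of 47 low-dose cells, with a difference of -1.72 (-1.33, -1.55 and -2.27). The adhesion molecule Icam1 (-1.17; -1.12, -1.10 and -1.29) and the subunit Rela (-1.05; -1.55, -0.98 and -0.61) passed the size rule too. The inhibitor Nfkbia was at -0.85 (-0.63, -0.83 and -1.10), while Tnfaip3 (0.04; 1.17, -0.03 and -1.03) had opposite signs on plates 1 and 3. At least 9 of the 18 members reached an FPKM of 10 in 3 high-dose cells, against 13 low-dose cells and 9 of 46 PBS cells. Of the list's single values, 17.3% in high-dose and 25.2% in low-dose cells reached 10, against 17.6% and 21.6% over all genes measured for lists. All 14 measured toll-like receptors and adaptors, of 22 listed, had a difference below 0, with a median of -0.43 (-0.36, -0.30 and -0.63); 0 of the 5 frequent enough passed the size rule. The less frequent kinase Irak1 (-1.39; -0.42, -2.31 and -1.45) reached an FPKM of 10 in 3 high-dose cells, against 13 low-dose cells, Ly86, a partner of a toll-like receptor homologue, was at -0.89, and Tlr1 at -0.89 (-0.30, -1.91 and -0.46). The adaptor Myd88 (-0.76) and the co-receptor Cd14 (-0.63) were lower on each plate.

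Cytokine and chemokine genes lay close to all genes. Their median was -0.17 (-0.28, -0.24 and -0.17), against -0.19 over all genes, with 11 of 17 members below 0 and 0 past the size rule. Ccl2, the monocyte attractant, was higher on each plate (0.72; 0.15, 1.19 and 0.81) and reached an FPKM of 10 in 18 high-dose cells, against 12 low-dose cells, with 26 of 46 PBS cells. Ccl5 was at 0.70, of which plate 1 made up most (2.32, -0.12 and -0.11), and Cxcl16 at -0.72 differed in sign between plates (-2.37, 1.79 and -1.57). Il1b, the partner of Il1a, was at 0.14 (-0.51, 0.87 and 0.05).

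Receptors for growth factors and cytokines had a median of -0.30 (-0.33, -0.30 and -0.34), which turned to 0.026 without the rod-marker cells, and 14 of 20 were below 0, a share of 70.0% against 70.2% of all genes. Csf2ra, the alpha chain of the GM-CSF receptor, reached an FPKM of 10 in 6 of 47 high-dose cells, against 20 of 47 low-dose cells, and its difference was -1.59 (-0.69, -2.00 and -2.07). Tgfbr1, a receptor of TGF-beta, which maintains microglial identity, was at 10 or more in 9 high-dose cells, against 21 low-dose cells, with a difference of -1.58 (-0.80, -2.88 and -1.05). The interferon receptor chain Ifnar2 was at -1.35 (-0.89, -2.36 and -0.81) and overlaps a gene model. Csf1r, the receptor on whose signal microglia depend, pointed the other way with 1.04, but not on plate 2 (1.92, -0.28 and 1.49). At least 10 of the 20 receptors reached an FPKM of 10 in 6 high-dose cells, against 18 low-dose cells. Over all values of the receptor list, 23% in high-dose and 31% in low-dose cells reached 10, against 17.6% and 21.6% over all genes measured for lists. All 10 measured TGF-beta signalling genes, of 19 listed, were below 0, with a median of -0.39 (-0.57, -0.37 and -0.63); the less frequent Nrros, which tethers latent TGF-beta on microglia, was at -1.22 (-1.50, -1.30 and -0.87) and the repressor Tgif1 at -0.82 (-1.16, -0.47 and -0.85). An FPKM of 10 was reached by 13% of values in high-dose cells, against 24.7% in low-dose cells of this list, and over all genes measured for lists by 17.6% at the high and 21.6% at the low dose. Of the lineage transcription factors 16 of 20 were below 0 with a median of -0.34 (0.03, -0.41 and -0.45), led by Cebpa (-1.03; -0.02, -2.22 and -0.86), Mef2a (-0.96; -0.35, 0.22 and -2.74) and Fli1 (-0.93; -1.42, -0.85 and -0.52); Spi1, the master factor of myeloid cells, was at -0.33 and Sall1, the factor particular to microglia, at 0.22.

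Antigen presentation by MHC class II split into a higher and a lower part. Cd74, the invariant chain that escorts class II molecules, had an FPKM of 0 to 23719.9 in high-dose cells with a median of 6.94, against 0 to 17259.7 with a median of 1.34 in low-dose cells. It reached 10 in 22 of 47 high-dose cells, against 10 of 47 low-dose cells, and in 22 of 46 PBS cells, with a difference of 1.13 (0.92, 1.83 and 0.64). H2-Ab1, the beta chain of the classical class II molecule, was at 1.12 (1.67, 0.81 and 0.87), with 10 or more in 13 high-dose cells, against 9 low-dose cells, and H2-Aa, its alpha chain, at 0.40 (0.54, 0.67 and -0.01). The peptide-loading chains H2-DMb1 (-1.68; -1.93, -1.28 and -1.82) and H2-DMb2 (-1.49; -1.80, -1.75 and -0.90) and the lysosomal thiol reductase Ifi30 (-1.38; -0.64, -1.03 and -2.47) were lower past the size rule. H2-DMb1 reached an FPKM of 10 in 13 of 47 high-dose cells, against 24 of 47 low-dose cells, and H2-DMb2 in 6 high-dose cells, against 17 low-dose cells; this pair shares a near-identical stretch, between which reads could be split, and both had the same direction. H2-DMa, their partner chain, had no common sign (1.64, 0.75 and -1.87). Over all 12 measured members the median was -0.15 (0.25, -0.27 and -0.56), with 8 below 0. Without the cells that held 3 or more rod markers, the differences of Cd74 and H2-Ab1 were 1.96 and 2.11, larger than with them.

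**Figure D5:**
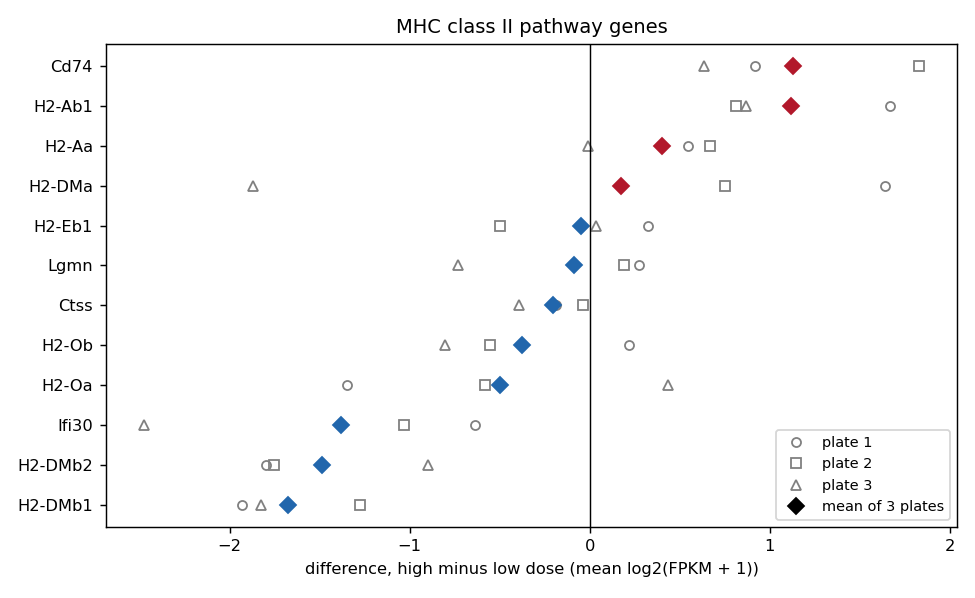
Difference between the high and the low dose in mean log2(FPKM + 1) for the 12 measured genes of the MHC class II list; diamonds are means of 3 plates (red above 0, blue below) and open symbols the single plates. Cd74 and H2-Ab1 lie right of 0 and H2-DMb1, H2-DMb2 and Ifi30 left of it on every plate.

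The class I and immunoproteasome list had a median of -0.30 (0.07, -0.22 and -0.50) with 15 of 21 below 0. H2-K1, a classical class I heavy chain, passed the size rule with -1.08 (-0.58, -0.77 and -1.89): it was found in 43 high-dose and 40 low-dose cells, but its median FPKM was 5.24 at the high and 154 at the low dose. The other classical heavy chain H2-D1 (0.17) and beta 2 microglobulin (B2m, 0.14) were near 0, and the proteasome activator Psme2 at -1.06 had the other sign on plate 3 (-3.01, -0.65 and 0.47); Psme2 has the near-identical copy Psme2b. Interferon-stimulated genes were not lower: 22 of 35 measured members were above 0, with a median of 0.09 (-0.05, 0.06 and 0.00) and 0 past the size rule, although the median was -0.14 as log2 ratios of mean FPKM. Ifitm3, a membrane protein that blocks virus entry, had a difference of 0.95 (0.87, 1.72 and 0.28) and an FPKM of 0 to 20104 in high-dose cells with a median of 14.2, against 0 to 9460.1 with a median of 5.62 in low-dose cells. The interferon regulatory factors Irf1 (-0.82; -1.12, -0.18 and -1.16) and Irf9 (-0.66; -0.36, -0.11 and -1.50) were lower on each plate. Fc receptors and their adaptors had the most positive median, 0.26 (0.52, -0.14 and 0.13), with 6 of 9 above 0 and 0 past the size rule. Fcgr1, the high-affinity receptor for IgG, was found in 39 high-dose and 28 low-dose cells, with a difference of 0.92 (1.64, 1.04 and 0.06). The inhibitory receptor Fcgr2b, which shares a near-identical stretch with Fcgr3, was at -0.53 (-0.43, -0.88 and -0.28). In the complement list (median 0.01; 0.41, -0.06 and 0.00) the abundant C1q chains C1qa, C1qb and C1qc were at 0.01, 0.20 and -0.48; C1qc reached an FPKM of 10 in all 47 cells of each dose. The integrin chain Itgb2 was at -0.56 (-0.94, 0.03 and -0.79) and the anaphylatoxin receptor C5ar1 at -0.39 (1.24, -1.24 and -1.16).

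The homeostatic and the disease-associated signature each held higher and lower genes. Homeostatic genes had a median of -0.21 (0.21, -0.32 and -0.49) with 19 of 31 below 0, and disease-associated genes -0.21 (-0.51, -0.34 and -0.31) with 20 of 30, both close to all genes. Within the first list Tgfbr1 and the orphan receptor Gpr34 (-1.14; -0.83, -1.84 and -0.76) were lower past the size rule, and the ADP receptor P2ry12 was at -1.28, carried by plate 2 (0.14, -3.35 and -0.65). The fractalkine receptor Cx3cr1 was higher on each plate (0.60; 1.16, 0.44 and 0.21), and Tmem119 (-0.39) and Trem2 (0.00) had no common sign. Within the second, Clec7a, the beta-glucan receptor dectin 1, had an FPKM of 0 to 3056 in high-dose cells with a median of 3.9, against 0 to 3082 with a median of 201 in low-dose cells. It reached 10 in 17 of 47 high-dose cells, against 29 of 47 low-dose cells, with a difference of -2.17 (-3.18, -1.16 and -2.17); the table types Clec7a as a polymorphic pseudogene, which kept it out of the 15 leading genes. The actin-capping protein Capg was found in 34 cells of each dose but reached 10 in 17 high-dose cells, against 27 low-dose cells, with -1.65 (-1.76, -1.91 and -1.28), and the integrin chain Itgb5 was at -1.54 (-0.63, -1.65 and -2.33). Apoe (0.02), Cst7 (0.37), Lgals3 (0.16) and Tyrobp (0.48) of the same signature were at or above 0.

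Phagocytosis and lysosome genes had a median of -0.39 (-0.29, -0.09 and -0.73) with 34 of 41 below 0. Lower past the size rule were 5 of the 36 frequent enough for it (13.9%, against 7.21% of all measured genes). These were Pros1 (-1.31), a bridge between dying cells and the receptor Mertk, Mertk itself (-1.03), progranulin (Grn, -1.31; -1.40, -0.23 and -2.29), cathepsin H (Ctsh, -1.09) and the proton pump subunit Atp6v1f (-1.01). Grn was found in 46 high-dose and 47 low-dose cells, and its median FPKM was 106 in high-dose and 776 in low-dose cells. Ctsh reached an FPKM of 10 in 21 and 27 cells of the high and the low dose. Lipid genes had a median of -0.08 (-0.04, -0.13 and -0.37); lipoprotein lipase (Lpl, -0.70; -0.63, -0.19 and -1.29) was lower on each plate, Alox5ap of leukotriene synthesis (-0.66; 0.62, -0.99 and -1.62) on 2 of 3, and Ptges3, a prostaglandin synthase and HSP90 co-chaperone, was at 0.60 (-0.16, 1.05 and 0.92) and has a near-identical stretch in 1 other gene.

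Nuclear-encoded subunits of oxidative phosphorylation were below 0 about as often as all genes, with a lower median. All 75 listed genes were measured and 54 were below 0 (72%, against 70.2% of all genes measured for lists). The median was -0.44 (-0.72, -0.29 and -0.35). Of the 71 frequent enough for the size rule, 10 were lower past it (14.1%, against 7.21% of all measured genes) and 0 higher. Beside Ndufa8, Cox7b and Ndufb7, the subunits Uqcr10 of complex III (-1.51; -1.46, -1.59 and -1.48), Cox6b1 of complex IV (-1.40; -0.10, -2.35 and -1.75) and Atp5k of ATP synthase (-1.13; -0.92, -0.91 and -1.56) passed. Other subunits of the same complexes, such as Ndufb9 (0.96) and Ndufa2 (0.80) of complex I, were above 0 on each plate. Glycolysis had a median of -0.38 (-0.48, -0.37 and -0.04) with 14 of 18 below 0. Gapdh (-1.45; -2.25, -1.35 and -0.75), aldolase A (Aldoa, -1.38; -1.87, -1.63 and -0.62) and the lactate exporter Slc16a3 (-1.42; -1.40, -1.42 and -1.45) were lower past the size rule, and Hk2, the first enzyme of the path, was higher. Slc16a3 reached an FPKM of 10 in 4 of 47 high-dose cells, against 15 of 47 low-dose cells. Gapdh was found in all 47 cells of each dose, with a median FPKM of 336 at the high and 588 at the low dose; it has near-identical stretches in 90 other genes, so its value is uncertain. Aldoa overlaps Fam57b and Slc16a3 overlaps Csnk1d.

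Of the housekeeping groups, proteasome, splicing and cell cycle genes had medians below that of all genes, and the ribosomal protein genes one close to it. All 31 constitutive proteasome genes were measured, 22 were below 0 (71%, against 70.2% of all genes), and the median was -0.56 (-0.71, -0.40 and -0.46); Psmd2, a scaffold of the regulatory particle, reached an FPKM of 10 in 9 high-dose cells, against 19 low-dose cells and was at -1.54 (-1.77, -1.28 and -1.57). Psmc5 (-1.34; -1.36, -3.33 and 0.67) and Psmb1 (-1.27; -2.47, 0.52 and -1.87) had a plate on the other side of 0. Splicing factors had 28 of 36 below 0 and a median of -0.39 (-0.70, -0.39 and -0.05), led, after Srsf9, by Srsf11 (-1.47; -1.35, -1.23 and -1.82) and Hnrnpa1 (-1.38; -2.30, -0.97 and -0.87), which has near-identical stretches in 9 other genes. Cell cycle and replication genes were measured for 21 of 44 members, 18 of them below 0, with a median of -0.60 (-0.58, -0.30 and -0.78). The microtubule regulator Stmn1 (-1.43; -1.01, -1.58 and -1.71), the replication clamp Pcna (-1.42; -2.02, -1.16 and -1.08) and the chromatin protein Hmgb2 (-1.29; -1.83, -1.04 and -0.98) were lower past the size rule; Hmgb2 reached an FPKM of 10 in 7 high-dose cells, against 19 low-dose cells. The minichromosome maintenance genes Mcm2, Mcm3, Mcm4, Mcm5 and Mcm6 were below 0 and Mcm7 above it (0.37). At least 11 of the 21 members reached an FPKM of 10 in 1 high-dose and 6 low-dose cells. Of the list's single values, 17.9% in high-dose and 26.8% in low-dose cells reached 10, against 17.6% and 21.6% over all genes measured for lists.

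Ribosomal protein genes had a median of -0.24 (-0.34, -0.09 and -0.08) with 46 of 75 below 0; Rpl15 was at -1.15 (-2.01, -0.66 and -0.79) and Rps23 at 1.12 (1.21, 0.57 and 1.59). Rpl15 and Rps23 have near-identical copies. Redox and iron genes had a median of -0.51 (-0.55, -0.28 and -0.86) with 21 of 28 below 0. The peroxiredoxins Prdx1 (-1.28; -1.81, -0.01 and -2.02) and Prdx3 (-1.23; -0.76, -0.71 and -2.24) were lower past the size rule, and metallothionein Mt1 at -1.91 was lower on plates 1 and 3 with no difference on plate 2 (-2.42, 0.00 and -3.32). Mt1 had a median FPKM of 1.68 in high-dose and 63.2 in low-dose cells. Cytosolic heat shock genes had a median of -0.15 (-0.18, -0.07 and 0.12), near all genes: Dnajb1 (-1.20; -1.30, -0.91 and -1.39) passed the size rule as lower, Hsp90aa1 was at -0.81, and Hspa8 (0.56) and the chaperonin subunit Tcp1 (0.90; 0.45, 0.71 and 1.54) were above 0. Whether this list differed from the ER chaperones was not tested.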

How the data were processed

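Each library is 1 cell sorted from Iba1-EGFP mice. The authors deposited FPKM values for 55364 genes in each cell; per the submitters' processing notes, Trim Galore 0.4.4, Trimmomatic 0.36, cutadapt 1.16, STAR 2.7.2b, featureCounts 1.6.1 and GRCm38.p6 were used, with settings and use of strand not stated.

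Values were taken as log2(FPKM + 1) in Python 3.11.15 with numpy 2.4.6 and pandas 2.3.3, and differences were high minus low dose within plates, averaged. Because each dose is 1 sample, no test was made. No count model was used, since a median of 51.4% of a cell's values were whole numbers of reads within 0.01. Reads were estimated from each cell's most frequent positive product of FPKM and gene length, taken as 1 read. Cells were thinned to 300000 reads. PCR reads carry no molecular identifiers, so intervals and floors cover counting error only.

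Named were the 15 most positive and 15 most negative measured genes with 1 sign on 3 plates, leaving out gene models, pseudogenes, mitochondrially encoded and ribosomal protein genes, the title genes, Rock1 and Rock2, and, per list, the 3 members that differed most in size. Some members that the rule names are not reported here. Of the 103 genes kept under this rule, 36 overlap an exon of another gene and 24 share a stretch of at least 200 bases at 95% identity with one (BLAST+ 2.17.0); further members named in the text were not checked for this. The members and lists were chosen with earlier results of these data known. Alternatives covered plates, pseudocount, scaling, filters on cells and genes, and thinning; scripts were tested on simulated data.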

Additional observations from a re-analysis of the deposited data

How the results depend on the processing

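Of the values that answer a comparison, 104 were close to their main value under an alternative and 46 were not. For the named genes 1249 values were close and 151 were not, and for the other lists 303 were close and 74 were not. A difference or median was close when it moved by less than the standard deviation of its 3 plate values. Counts and shares of cells had limits of their own. Leaving out 1 plate cannot move a gene's mean that far, so 100 named genes were close without each plate by construction. There was 1 reversal, the growth factor and cytokine receptors, whose median was 0.026 without rod-marker cells. Only genes past the size rule, and lists with 1 sign on 3 plates and a median of sufficient size, could count as reversed. The turns of sign named above for other lists were thus not counted as reversals. No paired analysis was possible because each dose is 1 sample.

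The number of lower genes, 235 in the main setting, was 393 without plate 2, 353 without plate 3, 477 with a pseudocount of 0.1, 37 with a pseudocount of 10, 110 after adjustment for detected genes and 91 after subtraction of each plate's median, which was chosen after seeing the data. Without plate 1 it was 349. The number of higher genes, 20 in the main setting, was 57, 55 and 62 without plates 1, 2 and 3, since a sign shared by 2 plates is easier to meet. It was 67 and 2 with pseudocounts of 0.1 and 10, 129 as log2 ratios of mean FPKM, 32 on the TPM scale, 49 in cells with 2000 detected genes or more, 43 in cells within the common range of detected genes (1362 to 4957), 48 without rod-marker cells, 55 after the adjustment and 70 after the subtraction.

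The median of all measured genes, -0.26, was -0.42 and -0.10 with pseudocounts of 0.1 and 10, -0.14 as ratios, -0.13 after the adjustment, -0.19 with a filter of 10% and -0.017 with no filter. The median of the ER stress list was -0.52 with a pseudocount of 10, -0.48 as ratios and -0.54 after the adjustment. That of the immediate early list was -1.78 in cells with 2000 detected genes or more and -0.43 after the adjustment. The difference of Tnf was -1.37 as ratios, and that of Il1a -1.16 as ratios and -1.65 in cells with 2000 detected genes or more. Genes per cell, high minus low, came to -258 in the main setting and to -1115.5 in cells with 2000 or more. Except by the construction named for the plates, the cause was not tested.

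Shares of cells depended on the threshold. Gpr84 had any FPKM above 0 in 95.7% of high-dose and 91.5% of low-dose cells and reached 10 in 29.8% and 46.8%; after thinning it was in 60.9% of low-dose cells. Tnf was above 0 in 93.6% of high-dose and 76.6% of low-dose cells and reached 10 in 23.4% and 31.9%. Il1a was above 0 in 91.5% of high-dose and 85.1% of low-dose cells and reached 10 in 36.2% and 40.4%.

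All 15 most negative and all 15 most positive genes kept their direction in 14 alternatives. They had been picked for large differences of 1 sign on every plate. Leaving out a plate therefore could not turn their direction. Subtracting each plate's median, which was small beside these differences, could not either. In those alternatives the kept direction is no check. Of these genes, 11 of the most negative and 1 of the most positive, Spag7, stayed past a difference of 1 in each alternative. Dose cannot be told apart from age and well position. How the number of reads bears on which genes were found in a cell was not tested. Read numbers, and with them the thinned values, rest on an estimated step and are uncertain.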
